A study of Rattus norvegicus with 16 samples.

Results

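The ligands and receptors described here drive and steady the growth of blood vessels. They were listed by name in 3 arms: Vegfa, Vegfb, Vegfc, Pgf, Kdr and Flt1 in the VEGF arm, Angpt1, Angpt2 and Tek in the angiopoietin arm, and Apln in the apelin arm. Of these 10 genes, 9 had a probe set assigned to their symbol alone and were measured, each by 1 probe set, among 17245 genes in all. Kdr, the main signalling receptor for VEGF-A, was not analysed here. Levels are log2 RMA intensities, where RMA is a background correction, normalization and probe summary, and a difference of 1 is a 2-fold change in intensity. All 9 genes are kept whatever their level, with no filter on dim values.

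Right ventricular wall was taken from male Wistar rats weighing 160 to 180 g that had been operated on either with a sham procedure or with banding of the pulmonary artery, which loads that ventricle with pressure. The labels name 5 samples RVF+ (numbered 8 to 12), 4 RVF (13 to 16) and 7 CON (1 to 7), the controls of the design. They do not spell these names out or tie a sample to 1 of the operations. No label says whether the samples within a group are different rats, so the p-values reflect sample-to-sample spread that could be technical.

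VEGF-A, VEGF-B and placental growth factor bind FLT1, VEGF-A signals to endothelial cells mainly through KDR, and VEGF-C and VEGF-D act mainly through FLT4 on lymphatic vessels. Angiopoietin 1 activates the endothelial receptor TEK (also called TIE2) and keeps vessels quiescent, while angiopoietin 2, stored and released by endothelial cells, often opposes it. Apelin is a peptide ligand of the receptor encoded by Aplnr, and is known for supporting contraction of the heart and growth of vessels.

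One array stood apart. RVF+ 8 differed from the CON mean by a root mean square of 0.711 (log2) across all genes, against 0.326 to 0.448 for the other RVF+ arrays, 0.358 to 0.417 in RVF and 0.157 to 0.212 in CON. It was the lowest RVF+ array for 5 of the 9 genes (Vegfa, Vegfb, Flt1, Tek and Apln), and values without it are given beside the results whose call, count or size it changed most. It also enters the spread shared by all 3 groups, so leaving it out changes calls in RVF against CON as well. All 13 cardiomyocyte markers reached at least the median level over genes (5.57) in each group, and the mean over 5 atrial markers was 5.82 to 6.57 in RVF+ arrays and 5.87 to 6.32 in RVF arrays, against 6.28 to 7.57 in CON arrays.

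The genes differed from each other in how they stood against CON, within the arms as well as between them. Angpt1 had the largest difference from CON in both groups, 4.82-fold lower in RVF+ and 5.03-fold lower in RVF. Apln was also lower in both, by 1.73-fold and 1.59-fold, and Vegfc was higher in both, by 1.44-fold and 1.36-fold. Angpt2 rose and Vegfb fell in RVF+ and neither was called in RVF, nor was the difference between RVF+ and RVF called for either. Vegfa, Pgf, Flt1 and Tek passed the threshold in neither comparison. In RNA from whole tissue, fewer cells of a type and less RNA per cell cannot be told apart.

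At an adjusted p under 0.05, 5 of the 9 genes (55.6%) were called in RVF+ against CON, 2 higher and 3 lower, where 27.7% of all 17245 genes were called, 14.1% as higher and 13.6% as lower. In RVF against CON, 3 of 9 (33.3%) were called, 1 higher and 2 lower, where 17.1% of all genes were, 8.86% as higher and 8.29% as lower. The groups did not overlap for 4 of 9 genes in RVF+ against CON, where the share of all genes was 14.6%, and for 3 of 9 in RVF against CON, where it was 18.8%. The median size of the difference, without its sign, was 0.52 over the 9 genes and 0.16 over all genes in RVF+ against CON, and 0.19 and 0.14 in RVF against CON. The shares over all genes include dim genes, which were called less often. With only genes kept that reached the median level in some group, 4204 were called in RVF+ and 2856 in RVF. The share called was thus larger among brighter genes, and of the 9 genes that filter removed only Pgf. The 2 comparisons share their CON arrays.

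**Figure D1:**
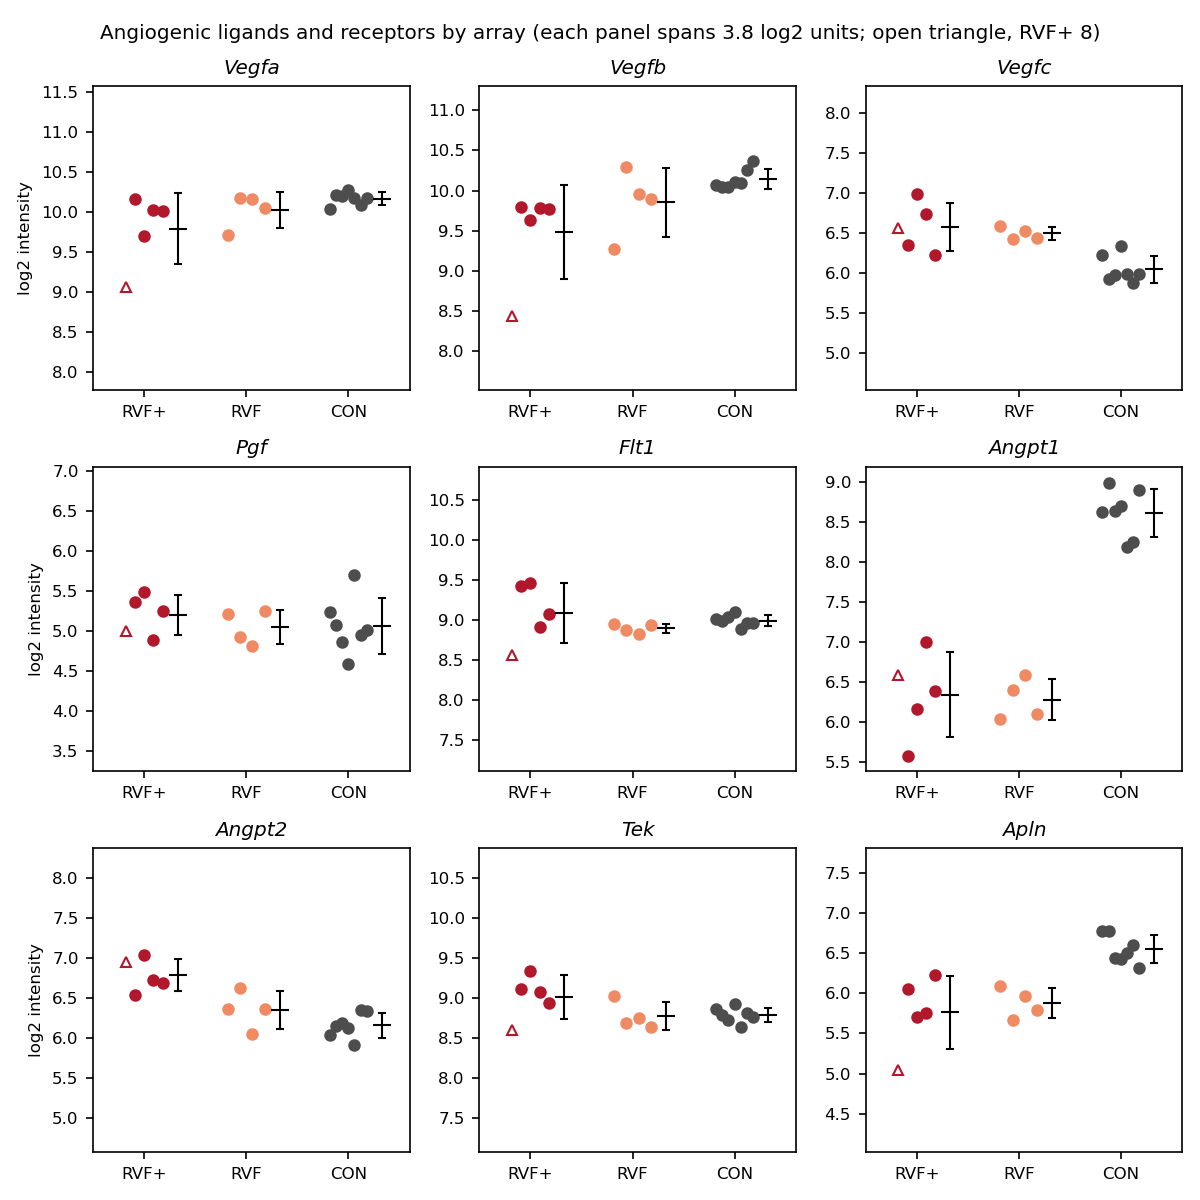
Log2 RMA intensity of each of the 9 measured genes on each array, by group from left to right (RVF+, RVF, CON), with 1 point per array, an open triangle for RVF+ 8, and beside each group its mean with a bar of 1 SD either way. Angpt1 is the gene whose RVF+ arrays (5.58 to 7.00) and RVF arrays (6.04 to 6.59) lie farthest from the CON arrays (8.19 to 8.99), and the triangle of Vegfb lies at 8.44.

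The promoter windows of Vegfb, Vegfc and Apln are shown because these 3 of the called genes have one in RefSeq's promoter table (assembly GRCr8). None is printed for Angpt1 and Angpt2. Each runs 5′ to 3′ on the gene's strand over 300 bases, 250 before and 50 after the start the table takes. That start is the outer edge of the annotated gene for Vegfc but lies inside it for Vegfb and Apln, so the Apln window falls wholly within the annotated gene and the Vegfb window crosses its edge. Capitals mark matches on either strand to the GC box GGGCGG, bound by SP-family factors, or to the hypoxia response core (ACGTG or GCGTG), bound by hypoxia-inducible factors.
Vegfb, chr1:213607103-213607402, minus strand: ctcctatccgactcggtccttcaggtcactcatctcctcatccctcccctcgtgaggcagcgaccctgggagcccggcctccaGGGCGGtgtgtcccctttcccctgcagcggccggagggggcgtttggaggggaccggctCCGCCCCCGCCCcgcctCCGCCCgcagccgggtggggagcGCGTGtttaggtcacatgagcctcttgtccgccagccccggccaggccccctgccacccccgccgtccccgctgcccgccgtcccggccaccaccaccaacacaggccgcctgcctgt
Vegfc, chr16:44560838-44561137, minus strand: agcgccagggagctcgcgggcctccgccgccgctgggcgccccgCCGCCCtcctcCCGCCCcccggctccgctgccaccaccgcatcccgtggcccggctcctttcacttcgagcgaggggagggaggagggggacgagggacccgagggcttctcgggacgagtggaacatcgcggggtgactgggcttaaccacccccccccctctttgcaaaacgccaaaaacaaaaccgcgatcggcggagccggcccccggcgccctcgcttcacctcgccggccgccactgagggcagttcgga
Apln, chrX:132091197-132091496, minus strand: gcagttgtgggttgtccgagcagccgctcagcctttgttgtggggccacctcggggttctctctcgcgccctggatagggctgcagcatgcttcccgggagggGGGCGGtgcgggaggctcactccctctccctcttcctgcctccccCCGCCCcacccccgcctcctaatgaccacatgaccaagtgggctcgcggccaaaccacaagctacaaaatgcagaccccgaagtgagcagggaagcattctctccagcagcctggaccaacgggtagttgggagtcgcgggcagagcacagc
The Vegfb window held 4 GC boxes and 1 hypoxia core, and the windows of Vegfc and Apln held 2 GC boxes each and no hypoxia core. No match shared a base with another. A TATA box (TATAAA) was not among the letters of any of the 3. Of all 33469 windows in the table, 33.1% held a GC box, 41.6% a hypoxia core and 14.2% a TATA box. Their base composition was rich in G and C, at 73.7% for Vegfb, 73.0% for Vegfc and 65.0% for Apln. Matches describe the letters in these windows and not binding.

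In the VEGF arm, the first question was whether the ligands of FLT1 differed from CON. Vegfa, the central ligand of blood vessel growth, was at 9.07, 10.16, 9.70, 10.03 and 10.02 in RVF+ and at 9.71, 10.18, 10.17 and 10.05 in RVF, against 10.04 to 10.28 with a median of 10.18 in CON. Of the 5 RVF+ arrays 4 lay below all CON arrays, and RVF+ 8 was the lowest by far. The difference from CON was -0.37 ± 0.15 in RVF+ (log2 difference ± SE, here and below), which missed the threshold (adjusted p = 0.0671, 95% interval -0.68 to -0.06), and -0.14 ± 0.16 in RVF (adjusted p = 0.598). Without RVF+ 8 it was -0.19 (adjusted p = 0.180), and without RVF+ 9, the highest of its group, -0.46 (adjusted p = 0.0284).

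Vegfb, a ligand of FLT1 that is abundant in heart muscle, had 8.44, 9.79, 9.63, 9.78 and 9.77 in RVF+ and 9.27, 10.30, 9.96 and 9.89 in RVF, against 10.04 to 10.37 with a median of 10.10 in CON. Every RVF+ array lay below every CON array, while RVF 14 lay within the CON range and the other 3 RVF arrays lay below it. The gene fell in RVF+ by 0.66 on the log2 scale, 1.58-fold (SE 0.21, adjusted p = 0.0225). RVF+ 8 set much of that size: without it the difference was -0.40 ± 0.13 (adjusted p = 0.0357). In RVF the difference was -0.29 ± 0.22 (adjusted p = 0.416). Levels of Vegfa and Vegfb exceeded those of 95.9% to 97.8% of all genes, by group mean.

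Vegfc, the ligand best known for growth of lymphatic vessels, moved the other way. It had 6.56, 6.35, 6.99, 6.74 and 6.23 in RVF+ and 6.59, 6.42, 6.53 and 6.44 in RVF, against 5.88 to 6.34 with a median of 5.99 in CON. All 4 RVF arrays and 4 of 5 RVF+ arrays were above every CON array, and only RVF+ 12 lay within the CON range. Vegfc rose by 0.52 ± 0.12 in RVF+ (adjusted p = 0.00247) and by 0.45 ± 0.12 in RVF (adjusted p = 0.0186). The call in RVF depended on single arrays: it was lost without RVF 13 (0.41, adjusted p = 0.0638) and without RVF 15 (0.43, adjusted p = 0.0508).

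Pgf, placental growth factor, was dim, with 4.89 to 5.49 in RVF+ and 4.81 to 5.25 in RVF, against 4.59 to 5.70 with a median of 5.01 in CON. The groups overlapped throughout, and its differences were 0.14 ± 0.16 in RVF+ (adjusted p = 0.553) and -0.01 ± 0.17 in RVF (adjusted p = 0.978). Flt1, the receptor that binds VEGF-A, VEGF-B and placental growth factor, had 8.56, 9.42, 9.46, 8.91 and 9.08 in RVF+ and 8.95, 8.87, 8.82 and 8.94 in RVF, against 8.89 to 9.10 with a median of 8.99 in CON. RVF+ 9 and 10 were above all CON arrays and RVF+ 8 was below them. Its difference was 0.09 ± 0.12 in RVF+ (adjusted p = 0.615) and -0.10 ± 0.13 in RVF (adjusted p = 0.670). Without RVF+ 8 it was 0.22 ± 0.09 in RVF+ (adjusted p = 0.0874).

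The other genes of this arm that were listed and measured were Vegfd, Flt4, Nrp1 and Nrp2. In RVF+ 2 of the 4 were higher and 1 was lower, and in RVF 2 (3 without RVF+ 8) were higher and none lower, with medians of 0.48 and 0.51 against -0.01 over all genes in both comparisons. Vegfd, the second ligand of FLT4, had 9.35, 7.63, 8.18, 7.91 and 8.05 in RVF+ and 8.18, 8.75, 8.23 and 8.04 in RVF, against 6.76 to 7.33 in CON. It rose by 1.07 ± 0.22 in RVF+ (2.11-fold, adjusted p = 0.00128) and by 1.15 ± 0.23 in RVF (2.22-fold, adjusted p = 0.00215), with no overlap with CON in either. Its RVF+ value was 0.79 without RVF+ 8 (adjusted p = 0.000314).

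Flt4, the receptor of VEGF-C and VEGF-D, had 7.06, 6.51, 6.78, 6.46 and 6.59 in RVF+ and 6.64, 6.14, 6.44 and 6.80 in RVF, against 5.61 to 5.89 in CON. No array of RVF+ or RVF reached down into the CON range. It rose by 0.93 ± 0.12 in RVF+ (adjusted p = 1.8e-05) and 0.75 ± 0.12 in RVF (adjusted p = 0.000379). Nrp1, a co-receptor of VEGF-A on endothelial and other cells, had 8.52, 8.69, 8.50, 8.68 and 9.08 in RVF+ and 8.97, 9.09, 9.10 and 8.95 in RVF, against 9.05 to 9.26 in CON. It fell by 0.46 in RVF+ (SE 0.09, adjusted p = 0.000789), and its difference in RVF was -0.12 ± 0.09 (adjusted p = 0.420). Nrp2, a co-receptor of VEGF-C, differed by 0.03 ± 0.09 in RVF+ and by 0.26 ± 0.10 in RVF (adjusted p = 0.823 and 0.0755). The RVF difference was called in 4 alternatives, with an adjusted p of 0.0499 without RVF+ 8 and 0.0121 with array weights. The RNA levels of Vegfc, Vegfd and Flt4 were thus higher in both groups, the Vegfc call in RVF being lost without RVF 13 or RVF 15. No gene of a FLT1 ligand was called higher.

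The markers of lymphatic endothelium did not move as 1 group. In RVF+ 2 of 6 were higher and 1 lower, and in RVF none was higher and 1 lower. The RVF call was Prox1 at -0.60 ± 0.20 (adjusted p = 0.0412), and it was lost under quantile normalization (adjusted p = 0.0547) and on leaving out any of CON 2, 3, 4, 6 and 7 and RVF 13, 14 and 16 (adjusted p 0.0591 to 0.123). Without RVF+ 8, Reln, a secreted glycoprotein of lymphatic endothelium, was called higher in RVF (0.59, adjusted p = 0.0286). Lyve1, a hyaluronan receptor on lymphatic vessels and some macrophages, rose by 1.10 ± 0.17 in RVF+ (adjusted p = 0.000139), while Prox1, the transcription factor that sets lymphatic identity and is also found in heart muscle, fell by 1.03 in RVF+ (SE 0.18, adjusted p = 0.000440). The mean level of the 6 markers was 7.22 to 7.91 in RVF+ arrays and 6.50 to 8.00 in RVF arrays, against 6.96 to 7.50 in CON arrays. Their part in the rise of Vegfc, Vegfd and Flt4 was not tested.

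**Figure D2:**
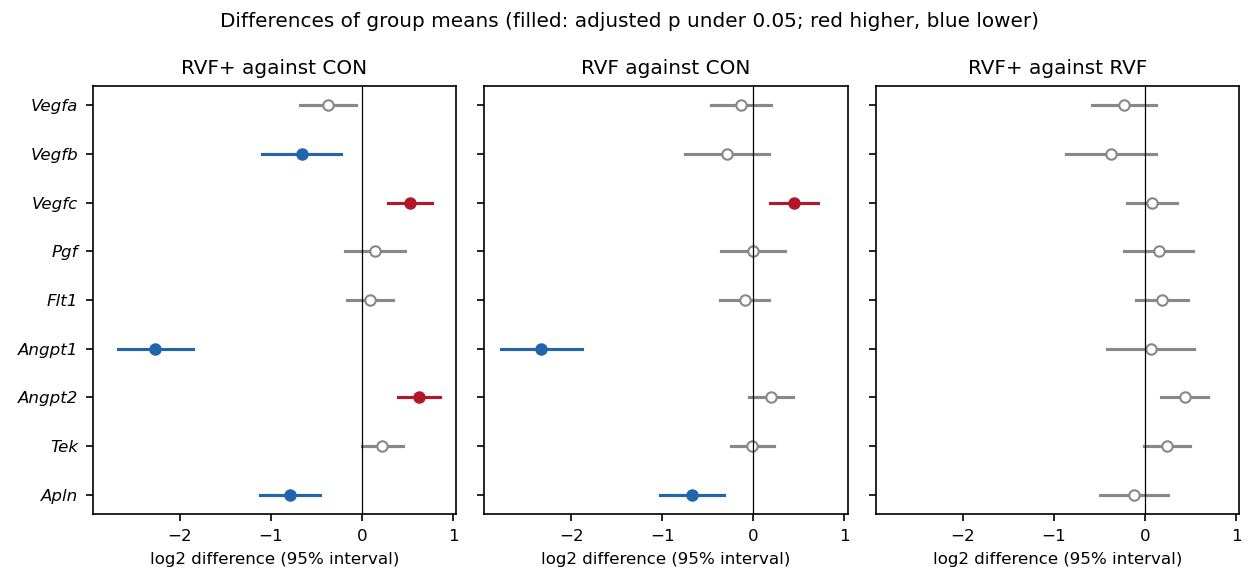
Log2 difference of each of the 9 genes with its 95% interval, in RVF+ against CON (left), RVF against CON (middle) and RVF+ against RVF (right), with filled points (red higher, blue lower) where the adjusted p was under 0.05. Angpt1 lies at -2.27 and -2.33 in the comparisons with CON and at 0.06 between RVF+ and RVF, where no point is filled.

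The angiopoietin arm held the largest change. Angpt1, the ligand that activates TEK, had 6.59, 5.58, 6.16, 7.00 and 6.39 in RVF+ and 6.04, 6.40, 6.59 and 6.10 in RVF, against 8.19 to 8.99 with a median of 8.64 in CON. The highest RVF+ array lay more than 1 unit below the lowest CON array. Angpt1 averaged 6.34 ± 0.53 in RVF+ (SD, n = 5) and 6.28 ± 0.26 in RVF (SD, n = 4), against 8.61 ± 0.30 in CON (SD, n = 7). By mean level it exceeded 60.0% of all genes in RVF+ and 59.2% in RVF, against 90.2% in CON.

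Angpt1 fell by 2.27 in RVF+ (SE 0.20, adjusted p = 8.43e-07) and fell by 2.33 in RVF (SE 0.21, adjusted p = 1.67e-06). Only 9 genes of 17245 had a larger fall in RVF+ and 6 in RVF. At least 2-fold and called were 3.02% of genes in RVF+ against CON and 1.93% in RVF against CON, and Angpt1 was the member that met this in both. RVF+ and RVF did not separate, with a difference of 0.06 and a 95% interval of -0.41 to 0.54 (adjusted p = 0.976). Without RVF+ 8 the value in RVF+ was -2.33 (adjusted p = 7.88e-07).

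Angpt2, the angiopoietin that endothelial cells release, had 6.95, 6.54, 7.03, 6.72 and 6.68 in RVF+ and 6.36, 6.62, 6.05 and 6.36 in RVF, against 5.91 to 6.35 with a median of 6.15 in CON. The RVF+ arrays lay above all CON arrays without exception, and RVF 15 lay within the CON range. Angpt2 rose by 0.63 ± 0.11 in RVF+ (1.54-fold, adjusted p = 0.000357), and its difference in RVF was 0.19 ± 0.12 (adjusted p = 0.295). Against RVF it was higher in RVF+ by 0.44 ± 0.12, with 4 of 5 RVF+ arrays above all RVF arrays, but no call was made after adjustment over all genes (adjusted p = 0.403, 95% interval 0.17 to 0.70).

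The opposite shifts of the 2 angiopoietins were compared within each array as the log2 level of Angpt2 minus that of Angpt1. Probes differ in brightness, so its sign says nothing of which RNA is more abundant, and only the shift between groups is read. The value was 0.36, 0.96, 0.87, -0.28 and 0.29 in RVF+ and 0.33, 0.22, -0.54 and 0.26 in RVF, against -2.84 to -1.90 in CON. It averaged 0.44 ± 0.50 in RVF+ (SD, n = 5) and 0.07 ± 0.41 in RVF (SD, n = 4), against -2.45 ± 0.30 in CON (SD, n = 7). The shift was 2.89 in RVF+ (7.43-fold) and 2.52 in RVF (5.74-fold), given as a description with no test. Most of it came from Angpt1, whose own differences were the larger part in both groups.

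Tek, the endothelial receptor of both angiopoietins, had 8.60, 9.11, 9.34, 9.07 and 8.94 in RVF+ and 9.02, 8.68, 8.75 and 8.63 in RVF, against 8.64 to 8.92 with a median of 8.79 in CON. Of the RVF+ arrays 4 lay above all CON arrays and RVF+ 8 lay below them. The difference in RVF+ was 0.23 ± 0.10 (adjusted p = 0.123). Leaving out RVF+ 8 turned this into a call, at 0.33 ± 0.09 (adjusted p = 0.0105). In RVF it was -0.01 ± 0.11 (adjusted p = 0.954).

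The 4 other genes of this arm showed little change as a group, with 1 higher and none lower in each comparison with CON. Tie1, a receptor that pairs with TEK, differed by 0.01 ± 0.14 in RVF+ and 0.17 ± 0.15 in RVF, and Angpt4, a further ligand of TEK, by 0.10 ± 0.12 and 0.12 ± 0.13 (adjusted p between 0.496 and 0.970). Ptprb, the endothelial phosphatase that removes phosphate from TEK, differed by 0.33 ± 0.15 in RVF+ (adjusted p = 0.107), and by 0.45 ± 0.13 without RVF+ 8 (adjusted p = 0.0161). Its difference in RVF was 0.03 ± 0.16. Svep1, a matrix protein that binds TIE1, rose by 0.65 ± 0.22 in RVF+ (adjusted p = 0.0374) and by 0.88 ± 0.24 in RVF (adjusted p = 0.0177). Neither call was firm. Without RVF+ 8 the first was 0.41 (adjusted p = 0.105), and it was lost in 9 of the alternatives. Without RVF 14 the second was 0.68 (adjusted p = 0.0837). By group mean Angpt4 (3.86 to 3.97) and Svep1 (4.52 to 5.39) were dim, below the median level over genes (5.57). At such levels RMA compresses differences, so little change in Angpt4 is weak evidence.

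The 3 genes whose pattern over the 16 arrays was most like that of Angpt1 were Cacng6, a calcium channel subunit, Cyp2e1, a drug-metabolising enzyme, and Cxadr, a cell adhesion receptor of the intercalated disc. Likeness was the root mean square of the differences between the 2 genes' centred log2 values, and was 0.35, 0.39 and 0.41 for them, against a median of 1.20 over all genes and 1.19 for Angpt1 about its own mean. These differences were -2.48 in RVF+ and -2.17 in RVF for Cacng6, -2.25 and -2.40 for Cyp2e1, and -1.74 and -1.54 for Cxadr.

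**Figure D3:**
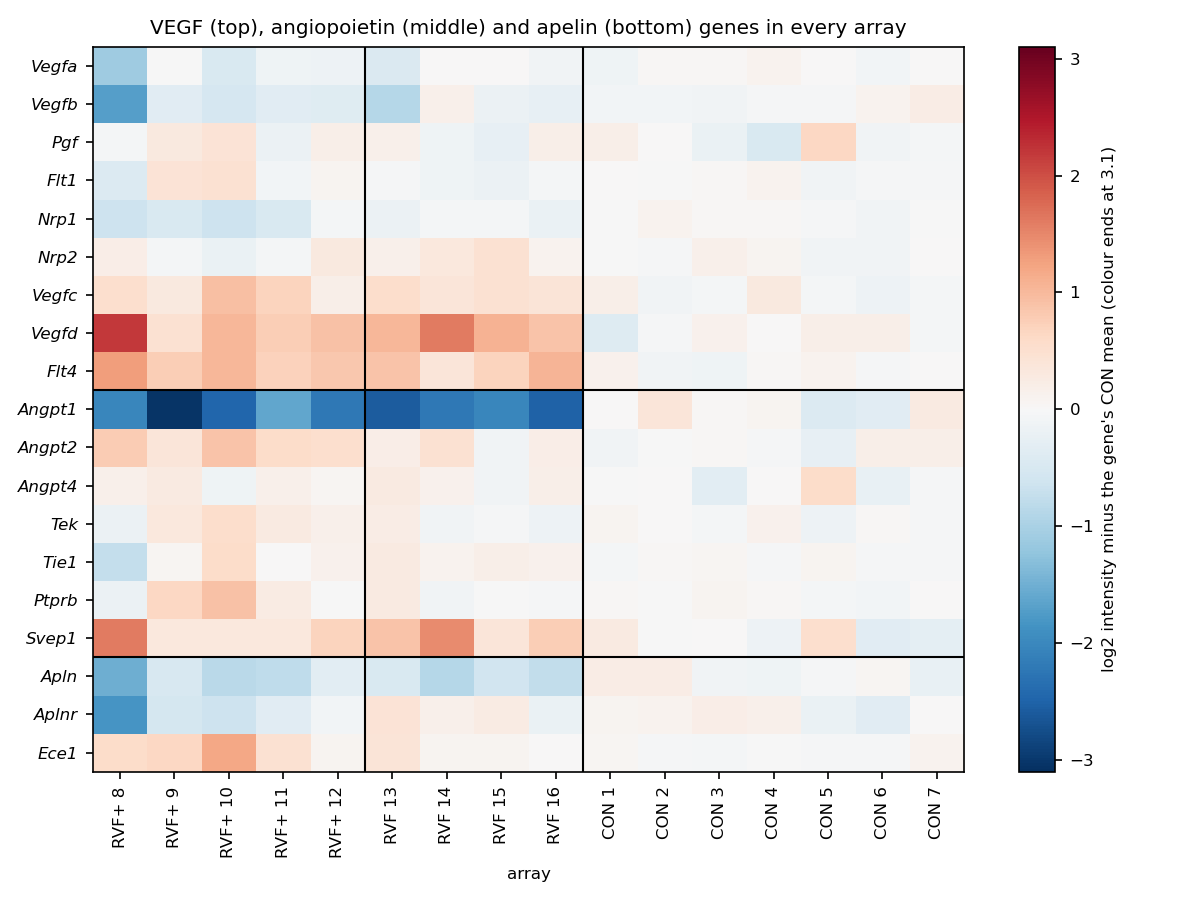
Log2 intensity minus the gene's CON mean (colour, from -3.1 in blue to 3.1 in red) for the measured genes of the VEGF, angiopoietin and apelin arms in rows and the arrays in columns (RVF+, RVF, CON). Angpt1 is the darkest blue row across the RVF+ and RVF arrays, Apln is lower in all of them, and Vegfd and Flt4 are higher in all of them.

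In the apelin arm, Apln, the gene of the peptide ligand, had 5.05, 6.06, 5.71, 5.76 and 6.23 in RVF+ and 6.09, 5.67, 5.97 and 5.79 in RVF, against 6.32 to 6.78 with a median of 6.51 in CON. Every array of both groups lay below every CON array. Apln fell by 0.79 in RVF+ (SE 0.16, adjusted p = 0.00101) and fell by 0.67 in RVF (SE 0.17, adjusted p = 0.00957). Without RVF+ 8, the lowest of its group, the value in RVF+ was -0.61 (adjusted p = 0.000743). RVF+ minus RVF was -0.12 with a 95% interval of -0.50 to 0.25.

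The receptor gene Aplnr was lower in RVF+ and was not called in RVF. It had 6.31, 7.60, 7.50, 7.79 and 8.06 in RVF+ and 8.55, 8.29, 8.39 and 7.93 in RVF, against 7.78 to 8.33 in CON. RVF+ 8, 9 and 10 lay below all CON arrays, and RVF 13 and 15 lay above them. The difference was -0.68 ± 0.22 in RVF+ (1.60-fold lower, adjusted p = 0.0257) and 0.16 ± 0.23 in RVF (adjusted p = 0.706). It was -0.40 ± 0.13 in RVF+ without RVF+ 8 (adjusted p = 0.0348). RVF+ minus RVF was -0.84 ± 0.25, not called after adjustment (adjusted p = 0.434).

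Ece1, an endothelin-converting enzyme that was listed with this arm, had 9.06, 9.15, 9.70, 8.98 and 8.59 in RVF+ and 8.89, 8.57, 8.57 and 8.52 in RVF, against 8.43 to 8.60 in CON. It rose by 0.60 ± 0.13 in RVF+ (1.51-fold, adjusted p = 0.0023), where 4 of 5 arrays lay above all CON arrays, and by an uncalled 0.14 ± 0.14 in RVF (adjusted p = 0.547).

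Between RVF+ and RVF, 0 of the 9 genes and 0 of all 17245 (0%) passed limma's adjusted threshold. At an unadjusted p under 0.05 there were 1242 genes (7.2%), and among the 9 this held for Angpt2 alone. The smallest adjusted p over all genes was 0.289. RVF+ and RVF were free of overlap for 0 of the 9 genes and for 1.74% of all genes. The intervals of the differences were wide enough to hold changes of some size, such as -0.87 to 0.13 for Vegfb and -0.01 to 0.49 for Tek.

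The genes around these arms were read from lists of pathways and cell types. Among 22 genes of oxygen sensing and hypoxia response, 5 were higher and 2 lower in RVF+ (median 0.22) and 4 were higher and none lower in RVF (median 0.09), where the median over all genes was -0.01. Without RVF+ 8 the counts were 6 higher and 1 lower in RVF+, and 7 higher and 1 lower in RVF. Over all 17245 genes 27.7% were called in RVF+ and 17.1% in RVF, shares to be set beside the counts of every list. Among brighter genes these shares were larger. Without RVF+ 8 the calls over all genes were 4297 in RVF+ (4771 with it) and 4247 in RVF (2957 with it). Ndrg1, a hypoxia-inducible stress gene, rose by 0.97 ± 0.13 in RVF+ (1.96-fold, adjusted p = 3.96e-05), P4ha1, a subunit of the collagen prolyl hydroxylase, by 0.84 ± 0.16 (adjusted p = 0.000784), and Vhl, part of the ligase that degrades hypoxia-inducible factors, by 0.53 ± 0.10 (adjusted p = 0.000617). Hif1an, which hydroxylates and restrains hypoxia-inducible factors, fell by 0.50 in RVF+ (SE 0.08, adjusted p = 0.000214). In RVF neither Ndrg1 (0.24 ± 0.14, adjusted p = 0.275) nor Hif1an (-0.19 ± 0.09, adjusted p = 0.156) was called in the main fit. Hif1an was called lower there with array weights (adjusted p = 0.0412) and with the compared groups alone (adjusted p = 0.0404). Vhl rose in RVF by 0.47 ± 0.11 (adjusted p = 0.00468), and P4ha1 by 0.64 ± 0.17 (adjusted p = 0.0148), a call lost without RVF 13 (0.55, adjusted p = 0.0690). Vegfa belongs to the known targets of hypoxia-inducible factors. It was not called in either group in the main fit, and was called lower in RVF+ in 4 of the 25 alternatives. Its link to these factors was not tested.

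Among 16 genes of Notch signalling and tip cells, 4 were higher and 3 lower in RVF+, and 2 higher and 1 lower in RVF (medians 0.16 and 0.13). Without RVF+ 8 the counts were 8 higher and 2 lower in RVF+, and 4 higher and 1 lower in RVF. Unc5b, a netrin receptor of endothelial tip cells, rose by 0.77 ± 0.08 in RVF+ (adjusted p = 3.29e-06) and by 0.75 ± 0.08 in RVF (adjusted p = 1.15e-05). Esm1, a secreted product of tip cells, fell by 0.81 in RVF+ (SE 0.19, adjusted p = 0.00354), with -0.15 ± 0.20 in RVF (adjusted p = 0.669). Of 12 genes of VEGF receptor signalling, 1 was higher and 1 lower in each comparison with CON. In RVF+ these were the kinase genes Src (0.32 ± 0.10, adjusted p = 0.0234) and Akt1 (-0.22 ± 0.08, adjusted p = 0.0428). Neither was called without RVF+ 8 (adjusted p = 0.0662 and 0.111), where instead the adaptor Nck1 (0.27, adjusted p = 0.0483) and the endothelial nitric oxide synthase Nos3 (0.33, adjusted p = 0.0337) were called higher.

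Angiogenesis inhibitors were called as higher more often than lower, 6 against 1 of 12 in RVF+ and 4 against 0 in RVF, with medians of 0.50 and 0.28. Serpinf1, which encodes pigment epithelium-derived factor, rose by 1.10 ± 0.12 in RVF+ (adjusted p = 4.76e-06) and 1.25 ± 0.13 in RVF (adjusted p = 4.27e-06). Col18a1, the collagen from which endostatin is cut, rose by 0.69 ± 0.11 and 0.65 ± 0.12 (adjusted p = 0.000193 and 0.000991). Of 15 other angiogenic factors, 7 were higher and 1 lower in RVF+, and 5 higher and 1 lower in RVF. Without RVF+ 8 these factors were 6 higher and 1 lower in RVF+ and 7 higher and 1 lower in RVF, and the inhibitors 7 higher and 1 lower in RVF+ and 4 higher and 0 lower in RVF. Ccn2, connective tissue growth factor, rose by 2.04 ± 0.16 in RVF+ and 2.31 ± 0.17 in RVF (adjusted p = 4.77e-07 and 3.28e-07), and Pdgfa, a growth factor for fibroblasts and other mesenchymal cells, fell by 0.56 in RVF+ and fell by 0.48 in RVF (SE 0.08 each, adjusted p = 5.33e-05 and 0.000645).

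**Figure D4:**
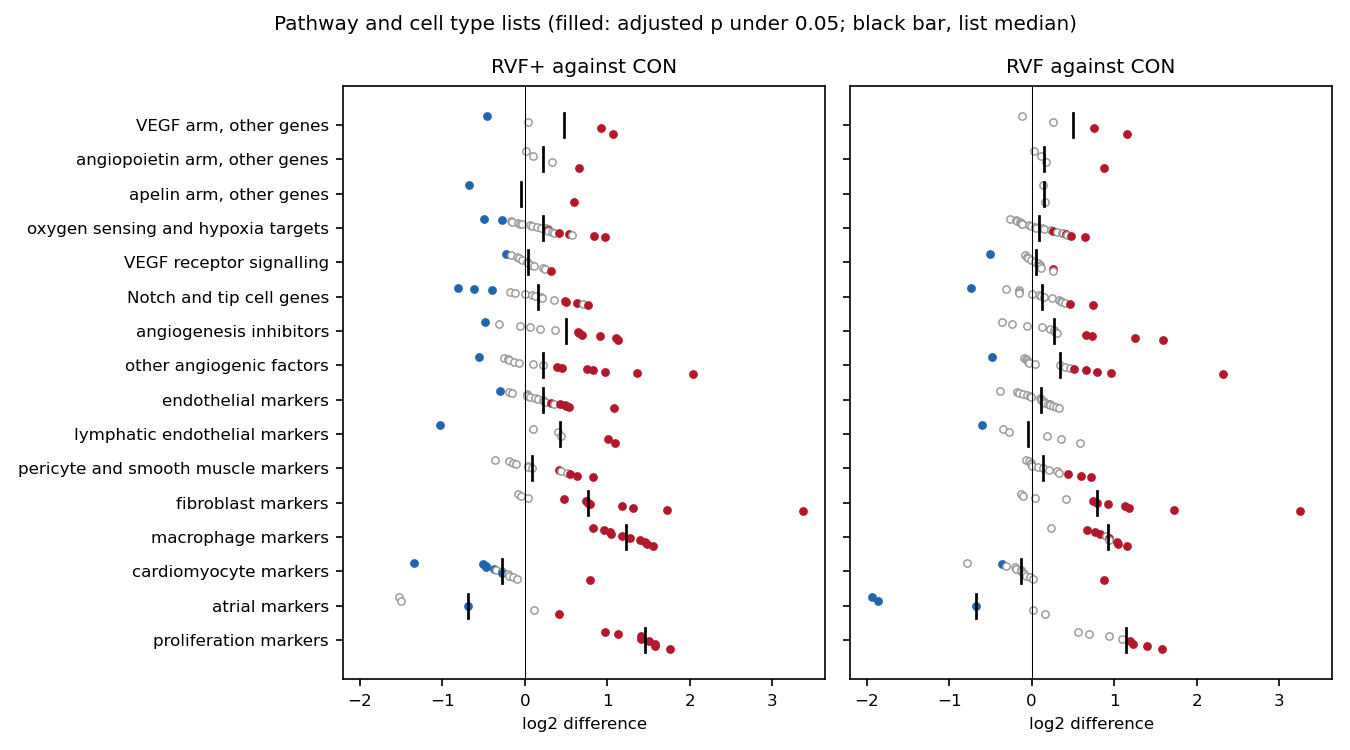
Log2 difference of each measured gene of the 16 lists (1 point per gene, lists in rows) in RVF+ against CON (left) and RVF against CON (right), with filled points (red higher, blue lower) where the adjusted p was under 0.05 and a black bar for the list's median. All 10 macrophage and all 8 proliferation markers are filled and right of 0 in RVF+, and no endothelial marker is filled in RVF.

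Markers of several cell types moved with these groups, and their part in the differences above was not tested. Of 19 endothelial markers, which mark the cells that carry FLT1, TEK and NRP1, 6 were higher and 1 lower in RVF+ and 0 were called in RVF (medians 0.23 and 0.11). Without RVF+ 8 the counts were 7 higher and 1 lower in RVF+, and in RVF the water channel gene Aqp1 was called lower (-0.38, adjusted p = 0.0339), as it was with array weights (adjusted p = 0.0169) and with the compared groups alone (adjusted p = 0.000692). Their mean level was 7.55 to 8.28 in RVF+ arrays and 7.63 to 7.96 in RVF arrays, against 7.58 to 7.76 in CON arrays, with RVF+ 8 the lowest RVF+ array. Vwf, the gene of von Willebrand factor, rose by 1.08 ± 0.17 in RVF+ (adjusted p = 0.000188). The 13 pericyte and smooth muscle markers mark mural cells, which are among the known sources of angiopoietin 1. Of these markers 4 were higher and 0 lower in RVF+ (9 not called), and 3 higher and 0 lower in RVF (10 not called). Their medians were 0.08 and 0.14. Pdgfrb, the platelet-derived growth factor receptor of pericytes, rose by more, 0.55 ± 0.08 and 0.60 ± 0.08. Without RVF+ 8 these markers were 3 higher and 0 lower in each group, as the smooth muscle gene Tagln lost its call in RVF+ (adjusted p = 0.0417 with that array and 0.113 without it). Their mean level was 7.67 to 7.95 in RVF+ arrays and 7.75 to 7.90 in RVF arrays, against 7.47 to 7.79 in CON arrays.

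Cardiomyocyte markers were 1 higher and 6 lower of 13 in RVF+, and 1 higher and 1 lower in RVF, with mean levels of 11.07 to 11.81 in RVF+ arrays and 11.76 to 11.85 in RVF arrays, against 11.85 to 11.94 in CON arrays. RVF+ 8 was the lowest. Without it the counts of lower markers were 6 in RVF+ and 4 in RVF. Fibroblast markers were higher for 8 of 11 in RVF+ and 7 of 11 in RVF, macrophage markers for 10 of 10 and 7 of 10, and proliferation markers for 8 of 8 and 4 of 8, with none lower in any of these. Without RVF+ 8 these counts were 8, 10 and 8 in RVF+ and 8, 9 and 8 in RVF. With all arrays, no gene of any of the 16 lists was called in RVF+ against RVF. Without RVF+ 12, Ndrg1 of the hypoxia list was called higher in RVF+ than in RVF (0.86, adjusted p = 0.0376).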

How the data were processed

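For 16 Affymetrix arrays the authors deposited probe set intensities, summarised by RMA per the submitters' processing notes, on a linear scale (2.202 to 10294, array medians 27.1 to 29.3). Per the labels' protocols, 500 ng of total RNA was labelled without ribosomal RNA reduction. No software version or genome build is given in the sources used here, so array features have no coordinates. RMA compresses differences of dim probe sets, and precision is limited by how many arrays there are.

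Values were converted to log2. Of 29214 probe sets, 18644 had 1 gene symbol in the array annotation, 962 several and 9608 none, and the brightest was kept for the 879 genes with more than 1, which left 17245 genes. Of the identifiers, 18460 matched RefSeq (GRCr8), with 0 symbols changed. Group means of all 16 arrays were fitted with limma 3.58.1 in R 4.3.3 (13 residual and 4.45 prior degrees of freedom). P-values are two-sided and Benjamini-Hochberg adjusted across the 17245 genes, with a threshold of 0.05. All adjusted p-values come from limma; the fit was first tested on simulated data. At most 0.00342% of values were identical between arrays of a group.

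The members and the 16 lists (188 genes, 172 measured) were chosen with earlier results of these data known. The text names all members, all genes of the 3 arms, the 3 genes most like a member among those changed at least 2-fold, and, of other lists, genes among the 4 with the smallest p. Promoter windows came from RefSeq for 7 of the 10 genes. Alternatives were quantile normalization, array centring, a filter on dim genes, the mean of probe sets, trend and robust moderation (statmod 1.5.0), fits of the compared groups, array weights, an offset of 16, and leaving out each array.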

Additional observations from a re-analysis of the deposited data

Results flagged for a closer look

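Of the 27 groups of values (9 genes in 3 groups), 1 was flagged because 1 array was distant from the others. Vegfb in RVF+ had RVF+ 8 at 8.44, while the nearest other array was at 9.63, a gap of 0.883 of the group's whole range. Chance alone flags about 1 in 20 such groups.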

How the results depend on the processing

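Across 25 alternatives (9 settings and 16 arrays left out in turn), the 9 genes in 3 comparisons gave 672 results. Of these 664 kept their side of the threshold, 2 lost the call and 6 gained one. Reversed results, which changed sign while called in the main fit or the alternative, numbered 0. Small uncalled differences did change sign in places, such as Flt1 in RVF+ against CON (0.09, lowest -0.002) and Tek in RVF against CON (-0.01, highest 0.03). Vegfa in RVF+ against CON gained the call when arrays were centred (-0.42, adjusted p = 0.0436), with dim genes removed (adjusted p = 0.0467) and without RVF+ 9 or RVF+ 11 (-0.46 and -0.43). Tek in RVF+ gained it with array weights (0.32, adjusted p = 0.0126) and without RVF+ 8. Vegfc in RVF lost it without RVF 13 or RVF 15. For the 82 other genes that the naming rule admits, of which the text describes a part, 6141 results were computed, of which 140 lost a call, 61 gained one and 0 reversed.

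The count of genes called in RVF against CON was 2957, and 4466 with the compared groups alone in the fit and 4688 with array weights. With each array left out it was 2063 (without RVF 13) to 4247 (without RVF+ 8). For RVF+ against CON it was 4771, and 4288 to 4993. For RVF+ against RVF it was 0, and 0 to 3 (3 without RVF+ 12). Members called ranged from 5 to 6, 2 to 3, and 0 to 0. With each array left out, the angiopoietin shift was 2.77 to 3.07 in RVF+ and 2.43 to 2.72 in RVF, and 0.17 to 0.55 between RVF+ and RVF; under the other settings it was 2.59 to 2.89, 2.28 to 2.52 and 0.31 to 0.37, lowest with an offset of 16. Centring moved the median of all genes to -0.06 in RVF+ and -0.04 in RVF, and the share of called genes that were higher from 50.8% to 39.9% and from 51.7% to 43.9%. Causes of these shifts were not tested. Pgf was removed by the filter on dim genes. No paired analysis was possible because the groups share no replicate numbers.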
